A study of Mus musculus with 8 samples.

Results

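Voltage-gated repolarizing potassium channel genes were followed through the H3K27Ac ChIP-Seq of mouse ventricles at postnatal day 7. The 7 genes were *Kcnq1*, *Kcnh2*, *Kcnd2*, *Kcnd3* and *Kcna5*, which encode pore-forming subunits, and *Kcnip2* and *Kcne1*, which encode auxiliary subunits. A peak was given to a gene when the centre of the peak lay nearest to one of the gene's curated RefSeq transcription starts on mm10. By this rule 38 of 45980 peaks belonged to the 7 genes, and every gene had at least 1. *Kcnip2* had 13 peaks, *Kcnh2* 9, *Kcnq1* 7, *Kcnd2* 3, *Kcna5* 3, *Kcne1* 2 and *Kcnd3* 1. The rule uses position and no H3K27Ac value.

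Control mice carried the Arid1a f/f genotype, with both copies of *Arid1a* floxed, and the Arid1a cKO mice were aMHC-Cre;Arid1a f/f. *Arid1a* encodes a subunit of the BAF chromatin remodelling complex, and the aMHC promoter drives Cre in cardiomyocytes, so other cells of the ventricle were not targeted. Each group had 2 H3K27Ac libraries and 2 input libraries without antibody, 8 libraries in all. H3K27Ac marks active promoters and enhancers. The deposited values are the authors' means over the 2 libraries of a group, on a log2 scale of normalized reads. No value of a single library was used here, so the spread between hearts and the depth of each library are unknown, and no difference below has a test. The depth behind a peak is therefore given as its mean number of normalized reads. A difference is the Arid1a cKO mean minus the control mean on the log2 scale, and a peak was counted as lower or higher where it reached 2-fold. In bulk tissue, fewer cells that carry a mark and less of the mark per cell cannot be told apart.

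Repolarization ends each heartbeat's action potential. *Kcnd2* and *Kcnd3* encode the pores of the fast transient outward current, and *Kcnip2* encodes a calcium-binding partner that brings these pores to the membrane. *Kcna5* encodes the pore of an ultrarapid delayed rectifier. *Kcnh2* encodes the pore of the rapid delayed rectifier (IKr), and *Kcnq1* with *Kcne1* forms the slow delayed rectifier (IKs). Inherited loss of function in *KCNQ1*, *KCNH2* or *KCNE1* causes long QT syndromes in people.

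Among the 38 peaks, 7 (18.4%) were at least 2-fold lower in Arid1a cKO hearts, where 10.6% of all peaks were. Another 5 (13.2%) were at least 2-fold higher, where 4.57% of all peaks were. The 7 lower peaks lay at *Kcnh2* (5), *Kcnd2* (1) and *Kcnd3* (1), and the 5 higher peaks at *Kcnip2* (3), *Kcnq1* (1) and *Kcne1* (1). The pore genes held 23 peaks, of which 30.4% were lower and 4.35% higher, with a median difference of −0.70. The auxiliary genes held 15 peaks, of which 0 were lower and 26.7% higher, with a median of 0.40. *Kcnip2* had 13 of these 15, most of them in introns of the neighbouring gene *Armh3*. The 4 higher ones had control means of 8.82, 9.85, 16.6 and 136 normalized reads. Summed reads were 102% of control over the auxiliary genes and 70.5% over the pore genes. The median was −0.24 over all 38 peaks and 0.01 over all peaks of the table. *Kcnh2* held 5 of the 7 lower peaks under this rule, and 6.90% of the 29 peaks of the other 6 genes were lower and 17.2% were higher. With peaks of the gene body and the 10 kb before it, *Kcnh2* held 2 of 4 lower peaks and *Kcnd3* the other 2. With predicted transcripts included, *Kcnh2* held 2 of 3, and the 12.5% of lower peaks was near the 10.6% of all peaks. Peaks of 1 gene share their locus and are not replicates, so these shares describe the loci and are not tests.

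**Figure D1:**
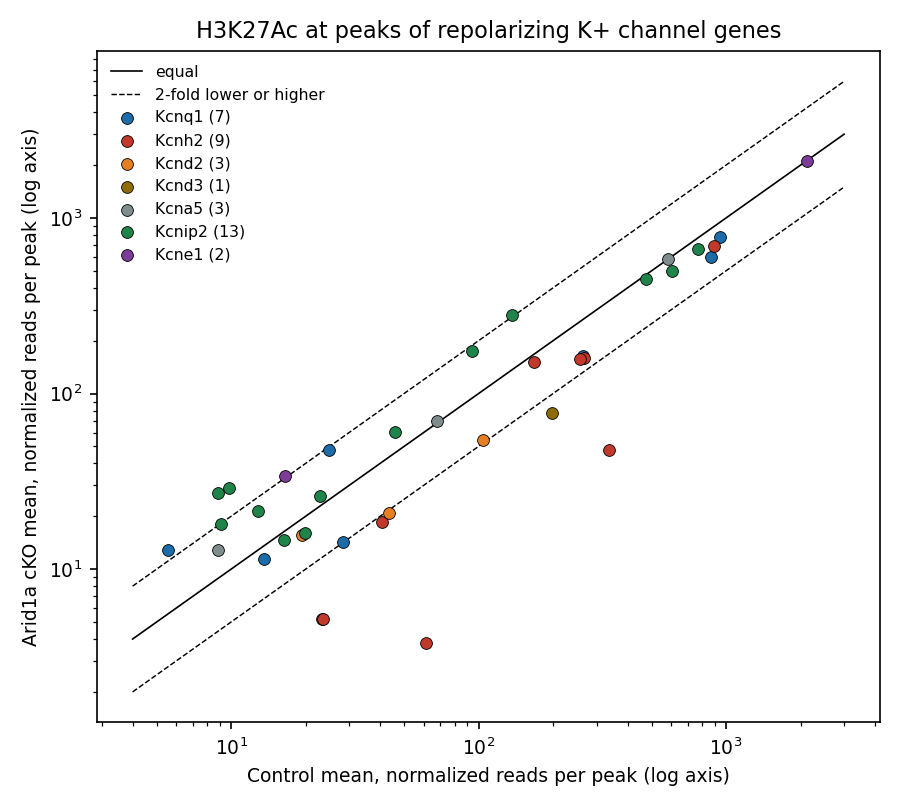
Mean H3K27Ac of each of the 38 peaks in control hearts (horizontal) and Arid1a cKO hearts (vertical), in normalized reads per peak on log axes. The solid line marks equal values and the dashed lines a 2-fold difference. Of the 7 peaks below the lower dashed line 5 belong to *Kcnh2*.

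*Kcnh2* lies on chromosome 5 of mm10 from 24319589 to 24351604 on the minus strand and has 2 curated starts. The one at 24351604 gives a transcript of 15 exons, and the one at 24329591, inside the gene, gives a transcript of 11 exons. The gene is known to make a long and a short subunit that differ at the N-terminus and assemble together in cardiac IKr channels. Because the peak over the internal start had the lowest difference of all peaks over a start of the 7 genes, the 250 bases before both starts are given, 5′ to 3′ on the minus strand, from RefSeq and the GRCm38.p6 reference (mm10). Capitals mark CpG dinucleotides.
Kcnh2 start inside the gene, chr5:24329592-24329841: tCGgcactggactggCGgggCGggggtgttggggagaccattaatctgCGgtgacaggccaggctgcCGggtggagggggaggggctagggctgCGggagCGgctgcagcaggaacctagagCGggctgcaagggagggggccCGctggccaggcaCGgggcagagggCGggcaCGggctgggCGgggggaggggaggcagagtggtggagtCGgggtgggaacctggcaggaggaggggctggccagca
Kcnh2 start farthest upstream, chr5:24351605-24351854: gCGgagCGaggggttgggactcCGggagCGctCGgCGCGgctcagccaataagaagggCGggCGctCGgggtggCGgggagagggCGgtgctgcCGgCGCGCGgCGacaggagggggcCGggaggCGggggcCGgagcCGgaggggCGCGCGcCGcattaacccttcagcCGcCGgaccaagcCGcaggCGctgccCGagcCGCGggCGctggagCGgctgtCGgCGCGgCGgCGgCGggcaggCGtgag
The stretch before the upstream start holds 41 CpG and the stretch before the internal start 14. Among 32851 RefSeq promoters the median was 6, with at least 41 in 1.09% and at least 14 in 29.4%.

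The peak over the internal *Kcnh2* start, from 24325996 to 24331283, had a mean of 335 normalized reads in control hearts and 47.5 in Arid1a cKO hearts. The difference was −2.82, which left 14.2% of the control mean, and 847 of all peaks were as low or lower. The peak over the upstream start, from 24348085 to 24354823, had 891 and 695 normalized reads, a difference of −0.36. Of these 2 peaks, the one with fewer CpG before its start had the lower share of H3K27Ac left. Peaks over starts of the other genes did not follow this order. *Kcna5* had 3 CpG and *Kcne1* 7 before each start, all with a difference of 0.00. The *Kcnip2* upstream start had 15 (1.04) and the *Kcnq1* start 25 (−0.54).

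Within the gene, the *Kcnh2* peak from 24320081 to 24322912 had the lowest difference of the 38. It lies in an intron 8.10 kb downstream of the internal start, and its means were 61.4 and 3.78 normalized reads. That is a difference of −4.02, with 6.16% of the control mean left, and 286 of all peaks were as low or lower. The Arid1a cKO mean rests on few reads. By concentration the peak fell in the second lowest of 4 equal groups, where 14.0% of all peaks were at least 2-fold lower. Between the starts, the peak from 24334123 to 24339158 had 267 and 159 normalized reads (−0.75). The peak from 24341186 to 24345938 had 258 and 158 (−0.71). The values in the gene body thus fall into a part upstream of the internal start, where between 59.5% and 77.9% of the control mean was left, and a part from that start onwards, where 14.2% or less was left.

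Downstream of the *Kcnh2* gene, 4 intergenic peaks were also nearest to the internal start. The peak from 24299163 to 24300170, 29.9 kb away, had 23.4 and 5.21 normalized reads (−2.17). The peak from 24273718 to 24274619, 55.4 kb away, had 23.3 and 5.21 (−2.16). The one from 24291509 to 24292994, had 40.8 and 18.5 (−1.14), and the farthest, from 24265464 to 24267503, had 168 and 151 (−0.15). All 9 *Kcnh2* peaks were below 0, where 22225 of all 45980 peaks were. The summed H3K27Ac of the 9 in Arid1a cKO hearts was 60.1% of control. Among 15761 genes with a peak, 95 had at least 5 lower peaks, and genes with fewer than 5 peaks could not. *Kcnh2* had 5 under this rule and 3 without the lowest of 4 equal groups by concentration. It had 2 with peaks of the gene body and the 10 kb before it, and 2 with predicted transcripts included. The low means of about 5 reads rest on few reads, and the share of lower peaks in the whole table was 16.5% in the lowest of 4 equal groups by concentration and 2.75% in the highest.

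**Figure D2:**
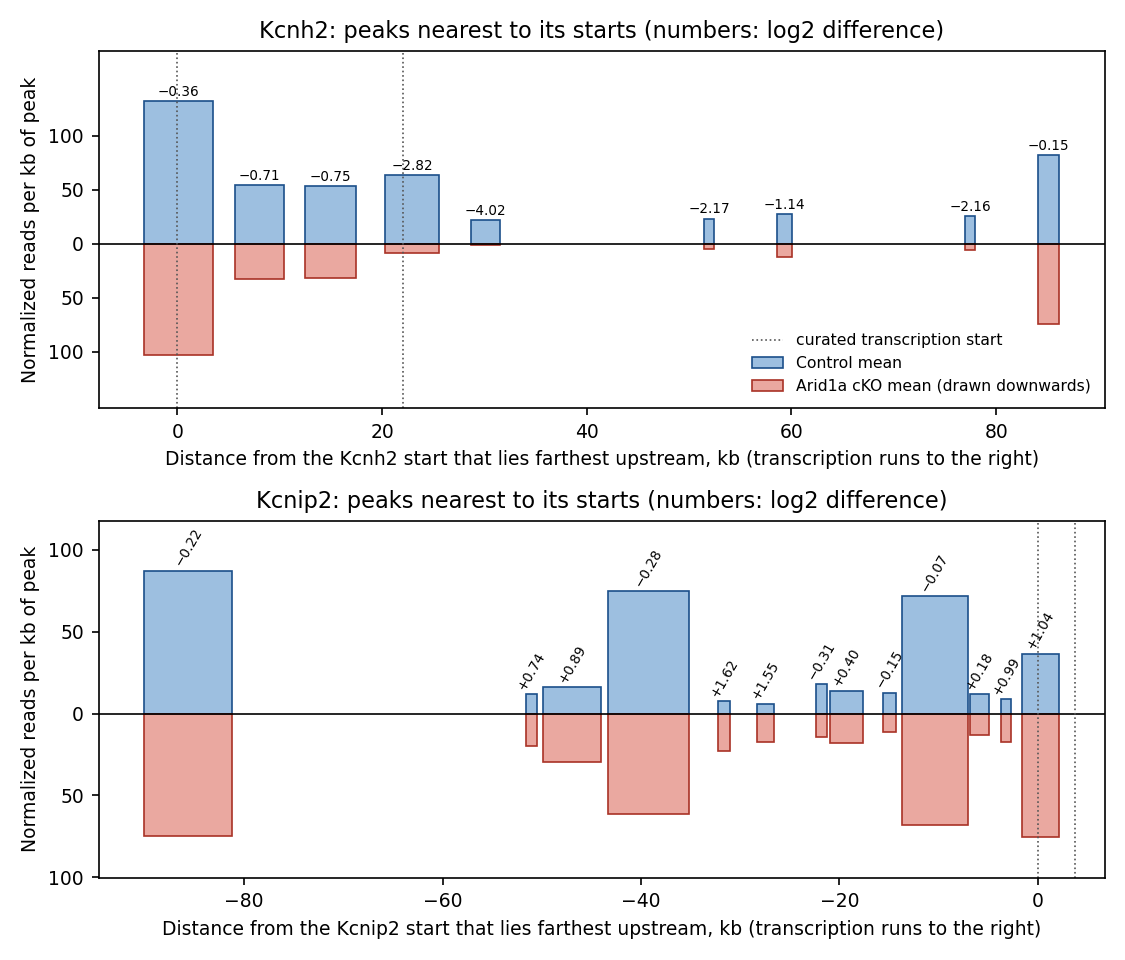
H3K27Ac along *Kcnh2* (upper) and *Kcnip2* (lower), with distance in kb from the start farthest upstream and transcription to the right. The height of a box is the mean in normalized reads per kb of peak, upwards for control and downwards for Arid1a cKO, its width is the peak's width, and the number above it is the log2 difference. At *Kcnh2* the Arid1a cKO boxes at the internal start (−2.82) and next to it (−4.02) are small, that of the farthest peak (−0.15) is not, and at *Kcnip2* the box over the start is taller in Arid1a cKO.

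Around *Kcnh2*, 14 peaks within 200 kb of a start had another nearest gene. Their median difference was −0.04, and 2 (14.3%) were lower, where 10.6% of all peaks were. The nearest of them, at *Nos3*, which encodes endothelial nitric oxide synthase, had 405 and 440 normalized reads (0.12). The lower ones were nearest to *Nupl2* (14.5 and 2.85 normalized reads) and *Slc4a2* (35.8 and 7.11), and their Arid1a cKO means rest on few reads.

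*Kcnq1* lies on chromosome 7 from 143107254 to 143427042 on the plus strand, and the centres of its 7 peaks all lay within 74.1 kb of the start. The peak over the start, from 143106591 to 143113977, had 867 normalized reads in control hearts and 596 in Arid1a cKO hearts, a difference of −0.54. The gene's highest peak, from 143116799 to 143126435, had 949 and 776 (−0.29). The peak from 143136045 to 143141389 had 265 and 163 (−0.70), and the peak from 143130330 to 143131765 had 28.2 and 14.2, a difference of −0.99 that is just short of 2-fold. The smaller peaks went either way. The peak from 143115894 to 143116716 had 5.58 and 12.8 normalized reads (1.20), the peak from 143153779 to 143155462 had 24.8 and 47.5 (0.94), and the peak from 143181013 to 143181766 had 13.6 and 11.4 (−0.26). Summed over the gene, 75.3% of the control reads were left.

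Farther inside *Kcnq1*, 11 peaks were nearest to starts of other genes, among them *Kcnq1ot1*, the imprinted noncoding RNA transcribed antisense to *Kcnq1*, and *Cdkn1c*. None of these 11 reached 2-fold, and they ran from −0.76 to 0.73. Strand cannot be read from H3K27Ac, so signal over the antisense RNA and over *Kcnq1* cannot be told apart.

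*Kcne1*, the partner of *Kcnq1* in IKs, lies on chromosome 16. A single peak of 21030 bp, from 92338717 to 92359746, covered the gene and both of its starts, and it had 2120 normalized reads in each group (0.00). Its concentration was at percentile 99.8 of all peaks, the highest of the 38. The other *Kcne1* peak, from 92368525 to 92369604, lay 9.60 kb upstream and had 16.6 and 34.1 normalized reads (1.04). Both genes of the IKs channel thus had strong H3K27Ac in each group, with a lower sum at *Kcnq1* and a sum of 101% of control at *Kcne1*.

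The transient outward pore genes had no peak over their starts. *Kcnd2*, on chromosome 6 with its start at 21215346, had 3 peaks, all intergenic and at least 102.5 kb upstream. They had 43.4 and 20.8 normalized reads (−1.06) from 21047640 to 21048744, 19.4 and 15.7 (−0.31) from 21104635 to 21105933, and 104 and 54.2 (−0.94) from 21110690 to 21112834. *Kcnd3*, on chromosome 3 with its start at 105451890, had 1 peak, from 105374694 to 105376906, with 198 and 77.7 normalized reads (−1.35). It lay 76.1 kb upstream of the start. All 4 peaks nearest to these pore genes had a lower mean in Arid1a cKO hearts, as did 22225 of all 45980 peaks. In these peaks 54.4% of the control reads were left for *Kcnd2* and 39.2% for *Kcnd3*. The assignment rests on distance alone, and with predicted transcripts included no peak was nearest to *Kcnd2*.

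Inside the *Kcnd3* gene were 3 more peaks, which were nearest to other starts and so are not among the 38. The peak from 105520358 to 105522379, nearest to the opposite-strand transcript *Kcnd3os*, had 133 and 44.6 normalized reads (−1.57). Another nearest to *Kcnd3os*, from 105538429 to 105539978, had 75.6 and 56.5 (−0.42). The one nearest to *Ddx20*, from 105659782 to 105661815, had 47.8 and 16.1 (−1.57). The values inside the gene were thus below 0, as at the upstream peak and at 22225 of all 45980 peaks.

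*Kcnip2*, the auxiliary gene of the same current, differed in the other direction at its start. It lies on chromosome 19 from 45792346 to 45816063 on the minus strand, with starts at 45816063 and 45812291. The 250 bases before the upstream start are shown because the peak over it was the only peak over a start of the 7 genes that was at least 2-fold higher. Capitals mark the 15 CpG, and 27.3% of RefSeq promoters had as many or more.
Kcnip2 upstream start, chr19:45816064-45816313, minus strand: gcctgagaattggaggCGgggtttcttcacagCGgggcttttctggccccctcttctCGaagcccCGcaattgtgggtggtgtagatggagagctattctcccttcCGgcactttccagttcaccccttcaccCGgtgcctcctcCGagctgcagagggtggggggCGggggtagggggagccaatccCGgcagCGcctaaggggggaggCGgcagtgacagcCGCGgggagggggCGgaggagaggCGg
The peak from 45813921 to 45817644 had 136 normalized reads in control hearts and 280 in Arid1a cKO hearts, a difference of 1.04. Per kb of peak these means were 36.6 and 75.2.

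The other 12 *Kcnip2* peaks lay upstream, in introns of the neighbouring gene *Armh3*, and the assignment to *Kcnip2* rests on distance alone. The 3 largest of them differed little. They had 771 and 662 normalized reads (−0.22) from 45897277 to 45906114, 605 and 498 (−0.28) from 45851250 to 45859363, and 474 and 452 (−0.07) from 45823126 to 45829763. The peaks from 45842699 to 45844369 and from 45847081 to 45848278 were the other higher ones, at 9.85 and 28.8 (1.55) and at 8.82 and 27.1 normalized reads (1.62). These means rest on few reads. Of 4 equal groups of all peaks by concentration, the first of these peaks fell in the second lowest, where 4.30% of all peaks were higher, and the other in the lowest, where 12.5% were. Just short of 2-fold was the peak from 45818724 to 45819765, with 9.06 and 18.0 normalized reads (0.99). The remaining 6 peaks ran from −0.31 to 0.89, on control means between 12.8 and 93.7 normalized reads. Because the large peaks hold most of the reads, the sum over *Kcnip2* was 102% of control while its median difference was 0.40.

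*Kcna5* lies in 1 exon on chromosome 6, from 126532551 to 126535555, and a peak from 126529111 to 126538534 covered the whole gene. That peak had 584 normalized reads in each group (0.00). The peak from 126501612 to 126504148 had 68.1 and 69.6 (0.03), and the peak from 126548315 to 126549203 had 8.82 and 12.8 (0.54). The *Kcna5* sum was 101% of control.

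**Figure D3:**
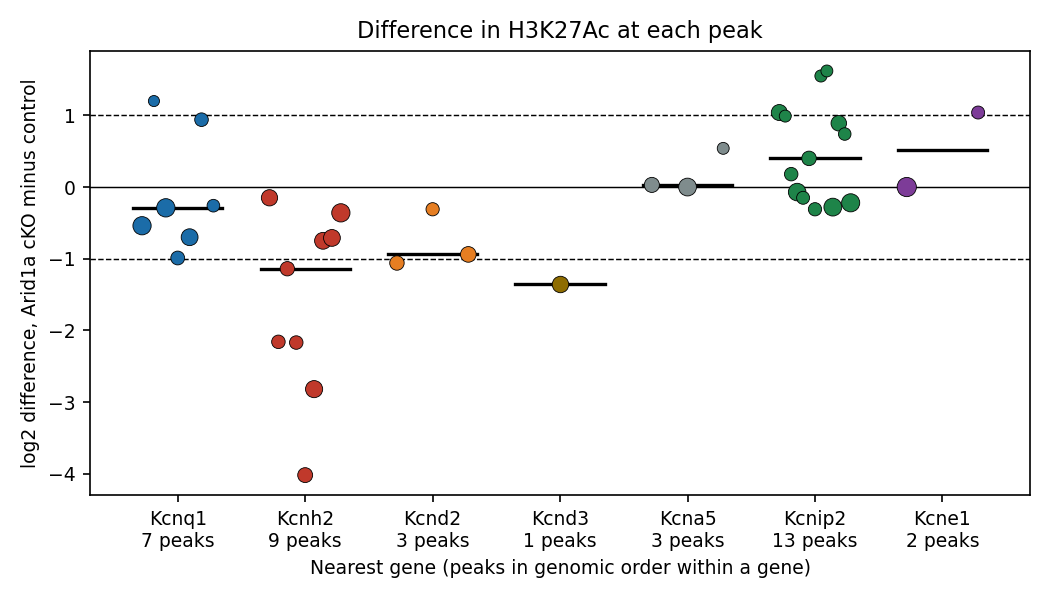
Log2 difference of every peak, Arid1a cKO minus control, by nearest gene. Each point is a peak and grows with its control mean, horizontal bars are the median of a gene, and dashed lines mark 2-fold. The 9 *Kcnh2* peaks run from −4.02 to −0.15 and the 13 *Kcnip2* peaks from −0.31 to 1.62.

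Set side by side per kb of peak, the control means summed over a gene were 96.6 normalized reads at *Kcne1*, 89.5 at *Kcnd3*, 79.6 at *Kcnq1*, 68.7 at *Kcnh2*, 51.4 at *Kcna5*, 48.5 at *Kcnip2* and 36.7 at *Kcnd2*. In Arid1a cKO hearts the order was *Kcne1* (97.4), *Kcnq1* (59.9), *Kcna5* (51.9), *Kcnip2* (49.7), *Kcnh2* (41.3), *Kcnd3* (35.1) and *Kcnd2* (19.9). Without values per heart, it cannot be said which neighbours in this order differ beyond their spread. *Kcnh2* and *Kcnd3* stood above *Kcna5* and *Kcnip2* in control hearts and below them in Arid1a cKO hearts. The *Kcnd3* value is that of 1 intergenic peak 76.1 kb from the start. All *Kcnd2* peaks were intergenic too, and most *Kcnip2* peaks lay in introns of *Armh3*. The order thus describes peaks assigned by distance and not the level at each gene's start.

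The sequence under the peaks was searched on both strands for the MEF2 core, for TCAAGGTCA (bound by oestrogen related receptors), CAGGTG (a ZEB and SNAI E-box), CATTCC (TEAD) and CACGTG (a MYC E-box). None of the 5 contains another. They were held by 5.26%, 10.5%, 76.3%, 76.3% and 39.5% of the 38 peaks, and by 7.56%, 7.34%, 69.3%, 65.4% and 28.9% of all peaks. These shares depend on width, and the median width was 2093 bp for the 38 and 1781 bp for all peaks. Per kb of peak the 38 held 0.0138, 0.0415, 1.02, 0.560 and 0.166 matches and all peaks 0.0334, 0.0339, 0.776, 0.612 and 0.167, so CATTCC and CACGTG were no denser in the 38. Of all RefSeq promoters, 300 bases long, 0.557%, 0.423%, 20.2%, 14.7% and 7.15% held them. TCAAGGTCA occurred in 4 of the 38 peaks. Because both *Kcnh2* peaks over a start were among them, these windows are shown 5′ to 3′ on the strand of the match, with the match in capitals.
Kcnh2 internal start peak, chr5:24330499-24330547, minus strand: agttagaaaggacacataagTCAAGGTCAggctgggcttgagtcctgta
Kcnh2 upstream start peak, chr5:24349223-24349271, plus strand: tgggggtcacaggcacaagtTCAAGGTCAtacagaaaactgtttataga
Kcnh2 upstream start peak, chr5:24350084-24350132, plus strand: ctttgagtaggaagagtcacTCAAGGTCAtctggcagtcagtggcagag
Kcnq1 intron peak, chr7:143138366-143138414, plus strand: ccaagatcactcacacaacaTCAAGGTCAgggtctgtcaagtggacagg
The match in the peak with a difference of −2.82 lies 0.928 kb upstream of the internal start, and 15.5% of peaks of like width, within 20% either way, hold one. The *Kcnq1* peak with the match (−0.70) also holds a MEF2 core, and the fourth is the *Kcne1* gene peak (0.00). The share among peaks of like width was 19.6% for the *Kcnh2* upstream start peak, 15.3% for this *Kcnq1* peak and 51% for the *Kcne1* gene peak.
Kcnq1 intron peak, MEF2 core in capitals, chr7:143140059-143140108, plus strand: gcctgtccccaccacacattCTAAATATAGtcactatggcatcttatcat
The *Kcnh2* intron peak with a difference of −4.02 held no MEF2 core and no TCAAGGTCA, and it held 4 CAGGTG and 3 CATTCC. The *Kcnip2* start peak (1.04) held 6 CAGGTG, 3 CATTCC and 1 CACGTG. Matches of CAGGTG and CATTCC were thus present in peaks that were lower, higher and equal between the groups. TCAAGGTCA and the MEF2 core had no match in a peak at least 2-fold higher. The MEF2 core and CACGTG had none in a peak at least 2-fold lower.

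The other voltage-gated potassium channel genes were described from a list of 47, of which 19 had peaks, 53 in all. Of these 13.2% were lower and 3.77% higher, with a median of 0.01. The 7 lower peaks all belonged to pore genes, among them *Kcna4* (2) and *Kcnq5* (2). Of the 37 peaks of pore genes 18.9% were lower and 2.70% higher. The 16 peaks of auxiliary genes held 0 lower ones, and 6.25% were higher. *Kcna4*, the pore of the slow transient outward current, had a median of −0.80 over 5 peaks, and its peak nearest to a start had 35.5 and 20.4 normalized reads (−0.80). *Kcnq5* had a median of 0.005 over 6 peaks that ran from −3.47 (58.1 and 5.24 normalized reads, 107.6 kb from a start) to 1.39. Nearly all genes with at least 2 peaks fell among the 5 lowest or the 5 highest medians, so these ranks set few genes apart. Also among the lowest medians were *Kcng2* at −0.31 and *Kcne4* at 0.03, the latter above the 0.01 of all peaks. Among the highest were *Kcne2* at 1.22, *Kcnip1* at 0.41, *Kcnab3* at 0.225 and *Kcns1* at 0.19. The *Kcne2* value rests on 2 small peaks that went opposite ways. One had 10.3 and 6.15 normalized reads (−0.74). The other had a control mean under the floor of 3 normalized reads, against which Arid1a cKO was at least 2.84-fold higher. With that mean set to 3, the *Kcne2* median was 0.385.

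**Figure D4:**
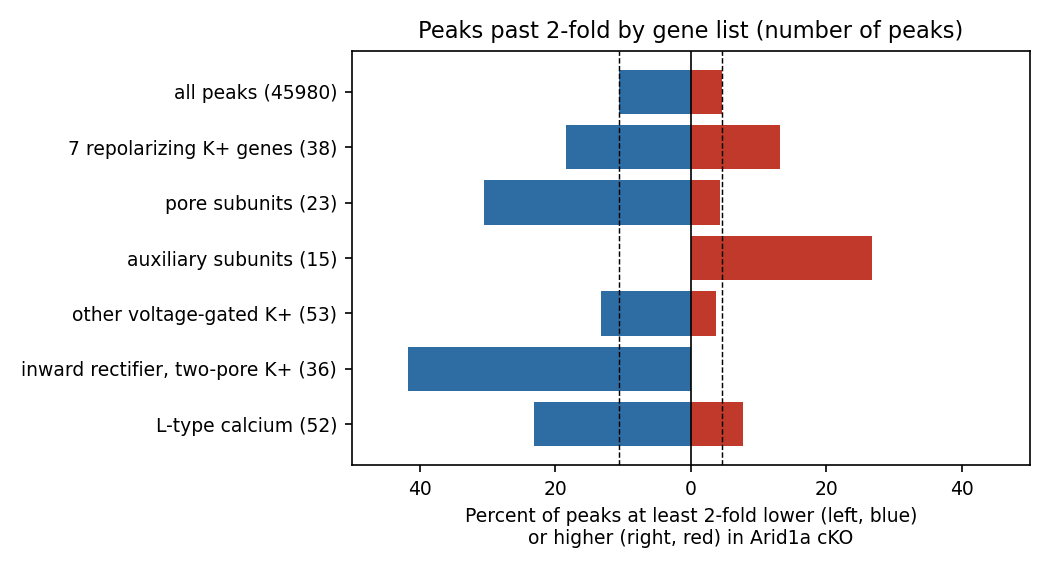
Share of peaks at least 2-fold lower (left, blue) or higher (right, red) in Arid1a cKO for each gene list, with the number of peaks in brackets. The dashed lines mark the 10.6% and 4.57% of all peaks. The pore genes of the 7 reach 30.4% lower and the auxiliary genes 26.7% higher. Of the 7 lower peaks 5 are at *Kcnh2*, and the higher auxiliary peaks are at *Kcnip2* (3) and *Kcne1* (1).

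Marker genes of cell types were read in the same way, and the ventricle's cardiomyocyte markers were present. All 9 cardiomyocyte marker genes had peaks, 61 in all, and 8.20% were lower and 3.28% higher, with single genes from 72.9% of control reads (*Tnnt2*) to 121% (*Tnni3*). All 6 fibroblast markers had sums above control, from 119% (*Postn*) to 150% (*Col1a1*), with 0 of 37 peaks lower and 5 (13.5%) higher. The 5 endothelial markers had sums from 97.9% to 104%. Of the atrial markers, *Nppa* had 472% and *Myl7* 495% of control reads on low control means of 49.5 and 11.3, *Myl4* had 114%, and *Sln* and *Bmp10* had no peak. Of the conduction markers, *Hcn4* had 38.8% and *Shox2* 129%, while *Tbx3*, *Cacna2d2* and *Cntn2* had no peak. The smooth muscle and pericyte markers ran from 92.2% (*Myh11*) to 178% (*Acta2*). Of the leukocyte markers 3 of 5 had peaks, from 114% to 184%, and of the neuronal and glial markers only *Snap25* did, at 75.6%. The part of these cell types in the values of the channel genes was not tested.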

How the data were processed

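H3K27Ac ChIP-Seq and input libraries were grouped by genotype and antibody from the labels. Reads had been aligned by the authors with BWA (0.7.17-r1188; mm10), peaks called by HOMER over the merged input libraries, and genotypes contrasted in DiffBind (2.12.0) through DESeq2 (1.24.0), with versions from the submitters' processing notes. The deposited table gives each peak's log2 concentration, the log2 of the authors' mean of normalized reads, over all libraries and per group. How libraries were scaled and whether input was subtracted are not given in the sources used here. The table's own fold change, p-value and FDR columns were not used.

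From these values, differences of group means were taken as deposited and counted at 2-fold. A floor of 3 normalized reads was used for the bound of a single peak and as an alternative. Of 45987 peaks, 7 on unplaced sequences were left out. Peaks were assigned with 45756 curated RefSeq transcripts on GRCm38.p6, and 49 peaks were equally near to several starts. The last peak of each of 21 chromosomes ended inside the reference. Motifs and CpG were counted in the reference, and the RefSeq table held 32851 promoters. With means only, no test was run and no error is given.

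Named were all 7 genes and, of the other voltage-gated potassium channel genes with at least 2 peaks, the 5 with the lowest and 5 with the highest median, plus any with a 4-fold peak, and some of these are not reported here. Genes and lists were chosen with earlier results of these data known. Alternatives covered the fold threshold, the assignment of peaks, distance, centring and low values. The code for the assignment and the counts was run on simulated data with planted answers and well separated starts. That checks the code only, and not the assignment where genes overlap. Python 3.11.15, pandas 2.3.3, numpy 2.4.6, pysam 0.24.0 and matplotlib 3.10.9 were used.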

Additional observations from a re-analysis of the deposited data

How the results depend on the processing

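The 10 results were recomputed under 10 settings, which gave 79 values, of which 57 stayed within 1.5 times a count or 0.1 on the log2 scale of a median and 22 did not. No median changed sign, although those of *Kcnq1* and *Kcna5* came to 0 under the gene body setting. The *Kcna5* median was also 0 with predicted transcripts included. At 1.5-fold 12 peaks (31.6%, against 17.3% of all peaks) were lower and 9 (23.7% against 12.02%) higher. At 4-fold 4 (10.5% against 3.77%) were lower and 0 higher (0.650% of all peaks). With peaks in the gene body or up to 10 kb before the start (34 peaks, none at *Kcnd2*), 4 were lower and 3 higher, the median over all was −0.065, and the gene medians were 0 at *Kcnq1*, −0.73 at *Kcnh2*, −1.57 at *Kcnd3* and 0.585 at *Kcnip2*. With predicted transcripts included (24 peaks, none at *Kcnd2* or *Kcne1*), 3 were lower (12.5% against 10.6% of all peaks), and the medians were −0.75 at *Kcnh2* and −0.995 at *Kcnd3*. With protein-coding starts only, the *Kcna5* median was 0.16. Within 50 kb (29 peaks, none at *Kcnd2* or *Kcnd3*), 4 were lower (13.8% against 9.51%), the median over all was −0.07 and that of *Kcnq1* −0.415. Without the lowest of 4 equal groups by concentration (27 peaks), 3 were higher (11.1% against 1.90%), and the medians were −0.54 at *Kcnq1*, −0.75 at *Kcnh2* and 0.29 at *Kcnip2*. Apart from the protein-coding starts, where 42 peaks entered, the settings that changed the set of peaks left fewer of them. The limits on distance and concentration only remove peaks, so they cannot raise a count. The gene body setting and predicted transcripts also exchanged peaks, so their counts depend on the assignment. *Kcnd3* had 3 peaks under the first and 2 under the second, and *Kcnq1* had 18 and 3. Distance from the nearest edge, centring on the median of all peaks and the floor moved no value past its limit, although centring brought the *Kcnq1* peak at −0.99 to 2-fold, for 8 lower peaks. No paired analysis was possible because the table holds group means only, and no replicate could be left out.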

Other observations

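Other channel genes of the ventricle gave the following values, with no test. Of 36 peaks of 10 inward rectifier and two-pore potassium channel genes, 41.7% were at least 2-fold lower and 0 higher, with a median of −0.74. The 15 lower ones belonged to 5 genes. *Kcnj2*, the main inward rectifier pore of ventricular myocytes, had 3 of 3 peaks lower, from −2.08 to −1.18. Of 52 peaks of L-type calcium channel genes 23.1% were lower and 7.69% higher. *Cacnb2*, an auxiliary subunit gene, had 4 of 9 lower, and *Cacnb3*, another, had 2 of 4 higher.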
